A study of Mus musculus with 4 samples.

Results

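Mouse digit cells with Scx, Tnmd and Thbs4 transcripts, called tenocyte-like here for these rule genes, were taken from 4 single-cell RNA libraries by their transcript counts. A cell was a member when its unique molecular identifiers (UMIs, 1 per captured transcript) for Scx, Tnmd and Thbs4 summed to at least 3 and lay above each of 6 other marker sums: C4b, Gdf10 and Cyp2f2; Pi16, Dpp4 and Pcolce2; Prss35, Spock3 and Crabp1; Chad, Omd and Scube1; Ibsp, Sp7 and Alpl; and Hapln1, Prg4 and Inhba. Members also had no UMI of Ptprc (the leukocyte marker CD45) or Cdh5 (an endothelial cadherin) and at most 2 of Rgs5 (a pericyte gene). In all, 1987 of 39266 barcodes that passed the filters on genes, UMIs and mitochondrial share were members.

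The mice were wild-type FVB/NJ animals of 8 weeks, and each library is labelled as a pool of males and females. One library came from the unamputated second phalanx (P2). The others came from digits cut through the middle of P2 and collected 12, 17 or 28 days post amputation (dpa). Amputation at this level heals with fibrous tissue and no regrowth. Each condition is 1 library, so no difference has a replicate check, no p-value is given, and the 95% intervals cover counting error alone.

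Tenocytes are the fibroblasts of tendon. They lay down parallel type I collagen fibrils, whose diameter and spacing are set by small leucine-rich proteoglycans such as fibromodulin, decorin and lumican, by minor collagens such as types V, XI and XII, and by lysyl oxidase crosslinks. Scleraxis (Scx) is the transcription factor that marks the tendon lineage, tenomodulin (Tnmd) is a membrane glycoprotein of mature tenocytes that Scleraxis controls, and thrombospondin 4 (Thbs4) is a matrix protein of tendon and muscle attachments.

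The libraries held 8813 to 16045 barcodes and 92313847 to 197140774 UMIs. Median depth per member fell from 25202 UMIs in the unamputated library through 18222 (12 dpa) and 15177 (17 dpa) to 10978 (28 dpa). Any 2 libraries shared 19 to 87 barcodes, and 1 member barcode occurred in a pair of libraries (12 and 28 dpa). The sex transcripts went against the labels. Members with at least 2 UMIs of Y-linked genes and none of Xist made up 93.0% of the unamputated members, 76.0% at 17 dpa and 62.1% at 28 dpa, and none there showed the reverse. At 12 dpa no member had that male pattern and 49.6% had the female one. Sex and the 12 dpa time point therefore cannot be told apart in any comparison with that library.

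The unamputated library held 497 members, the 12 dpa library 813, the 17 dpa library 287 and the 28 dpa library 390. As a share of all cells in the 7 stromal marker classes (the members and the 6 classes defined by the other sums), members were 23.3% before amputation (exact Clopper-Pearson 95% interval 21.5 to 25.1), 45.4% at 12 dpa (43.1 to 47.8), 12.4% at 17 dpa (11.1 to 13.8) and 12.8% at 28 dpa (11.7 to 14.1). The 12 dpa interval lay above the other libraries' and the 17 and 28 dpa intervals overlapped. With every cell thinned to 3000 UMIs the shares were 22.1, 50.2, 11.4 and 11.9%, in the order unamputated, 12, 17 and 28 dpa. The 12 dpa share was also the highest of the 4 with other denominators: members were 4.16, 11.7, 3.30 and 3.34% of all passing barcodes. The other classes shifted too, the Pi16, Dpp4 and Pcolce2 class from 17.1% before amputation to 40.4% at 28 dpa. Shares of a dissociated and sorted digit describe the cells that were captured, and each is 1 library.

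**Figure D1:**
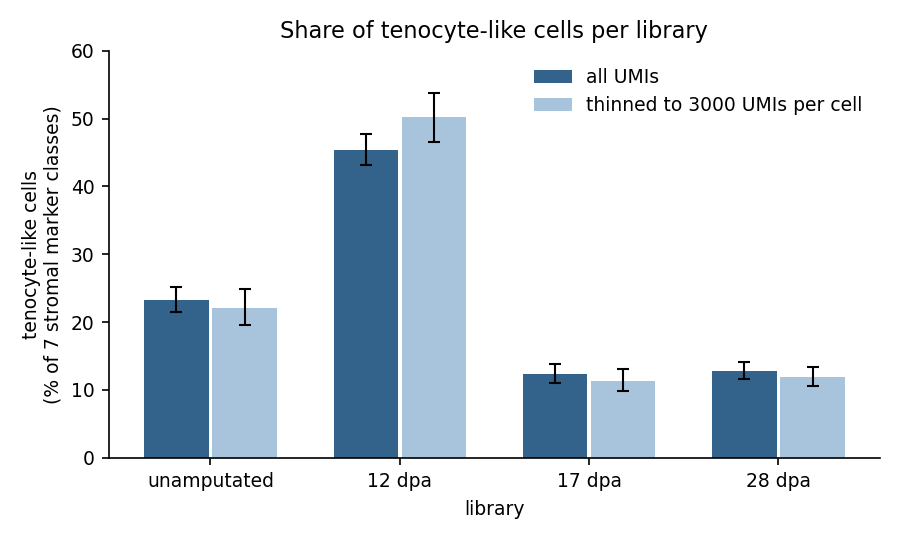
Share of tenocyte-like cells among the cells of 7 stromal marker classes (y axis, %) in the 4 libraries (x axis), with all UMIs (dark bars) and with every cell thinned to 3000 UMIs (light bars). Error bars are exact 95% binomial intervals for counting error, and the 12 dpa bars stand highest at 45.4 and 50.2%.

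The 3 genes of the rule chose the cells, so their levels are a description. Scx stood at 137, 211, 154 and 145 CPM (counts of a gene per 1000000 UMIs, over the summed UMIs of all members of the library) in the unamputated, 12, 17 and 28 dpa libraries. Tnmd stood at 239, 226, 149 and 213 CPM. Thbs4 stood at 625, 505, 966 and 1121 CPM, higher at 17 and 28 dpa than before amputation. The median sum over the 3 genes was 17 UMIs in the unamputated members, 14 at 12 dpa, 11 at 17 dpa and 12 at 28 dpa. Near the edge of the rule, Fmod was 265, 864, 397 and 942 CPM in members with a sum of 3 and 97.8, 602, 396 and 127 CPM in cells just outside with a sum of 2, so the levels were nearly equal at 17 dpa. Col11a1 was 690, 920, 380 and 215 CPM inside and 257, 996, 272 and 26.6 CPM outside, with the order turned at 12 dpa.

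The label was checked against tendon genes that the rule did not use. Of 13 tendon transcription factors measured, none was 2-fold higher in members than in the other 6 classes pooled in all 4 libraries, with list medians of -0.42, -0.23, -0.01 and -0.12 on the log2 scale. Medians of all 11609 genes measured were -0.12, -0.10, -0.07 and -0.03, and 10 of those genes (0.0861%) were 2-fold higher in all 4 libraries and 76 (0.655%) 2-fold lower. Of 35 tendon matrix genes, 4 were 2-fold higher in all 4 libraries and 2 were 2-fold lower, with list medians of 0.39, 0.22, 0.37 and 0.49. Fmod (fibromodulin) was above the other 6 classes pooled in every library, and Kera (keratocan, a related proteoglycan) stood at 44.7, 30.7, 78.8 and 73.2 CPM, against 16.7, 37.4, 9.13 and 4.40 CPM in the other classes pooled, so it was not above them at 12 dpa. Taken singly, the Prss35, Spock3 and Crabp1 class had more Kera than members before amputation, at 12 and at 17 dpa. Its levels were 50.8, 62.6 and 116 CPM. At 12 dpa the Pi16, Dpp4 and Pcolce2 class was also above members, at 36.5 CPM. Mkx (Mohawk, a tendon transcription factor) stood at 31.9 CPM in members against 26.9 CPM in the pooled classes before amputation and at 21.9 against 13.6 CPM at 28 dpa. In every library 2 single classes had more Mkx than members, led at 17 dpa by the Chad, Omd and Scube1 class at 97.9 against 28.5 CPM. Ptx4 and Chodl were at or near 0. Fmod UMIs were found in 81.3% of unamputated members and 3.35% of immune-marked cells, at median depths of 25202 and 9154 UMIs, and in 65.8 and 1.56% after thinning to 3000 UMIs. Between 55.7% (12 dpa) and 70.8% (unamputated) of members also had 3 or more UMIs of another class's sum, most often the joint-lining sum of Hapln1, Prg4 and Inhba, so they were not a sharply bounded type. The name tenocyte-like thus rests on the genes that chose the cells.

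Because the cells were chosen by their own counts, the comparison with the pooled classes is a description. The 10 genes at least 2-fold higher in all 4 libraries were Fmod, Col11a1, Cilp, Thbs1, C1qtnf3, Tagln, Aqp5, Aqp2, Kcns1 and Rasl11b, of which the first 6 reached 50 CPM in every library. Set against each of the 6 classes singly, a comparison chosen after seeing the data, Thbs1, Cilp, C1qtnf3 and Aqp5 were highest in members in all 4 libraries. Tagln, Kcns1 and Rasl11b were highest in members in 3, Fmod and Aqp2 in 2 and Col11a1 in 1.

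Fmod, which binds collagen I and limits fibril thickness, stood at 808 CPM before amputation, 1228 at 12 dpa, 1000 at 17 dpa and 1657 at 28 dpa. The other 6 classes pooled stayed between 348 and 518 CPM. The Chad, Omd and Scube1 class alone stood at 744, 1654, 1387 and 1386 CPM, above the members at 12 dpa (18 cells of that class) and 17 dpa (125 cells). Col11a1, a chain of the minor collagen that nucleates fibrils, stood at 1679, 1668, 773 and 449 CPM, against 654, 692, 351 and 180 CPM in the other classes pooled. Members and pooled classes both stood lower at 17 and 28 dpa than before amputation. Single classes exceeded members in all 3 dpa libraries: the Chad, Omd and Scube1 class at 12 dpa, at 2152 CPM, and the Ibsp, Sp7 and Alpl class at 17 and 28 dpa, at 846 and 559 CPM, with the Chad, Omd and Scube1 class at 554 CPM at 28 dpa. Cilp, a matrix protein of cartilage and tendon, stood at 242, 325, 296 and 275 CPM against 68.2, 141, 130 and 95.4 CPM. Thbs1 (thrombospondin 1, which can activate latent TGF-beta) stood at 655, 592, 346 and 407 CPM against 233, 249, 111 and 165 CPM. C1qtnf3, a secreted C1q-related protein, stood at 664, 696, 721 and 221 CPM against 136, 312, 86.5 and 96.3 CPM. At 17 dpa 1 member held 8.87% of the C1qtnf3 UMIs. Aqp5 and Aqp2, water channels encoded side by side on chromosome 15, stood at 67.9 and 42.2 CPM in unamputated members against 15.6 and 6.94 CPM.

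Tagln (transgelin, an actin-binding protein of smooth muscle and myofibroblasts) met the rule on the summed counts, at 198, 435, 168 and 130 CPM against 85.8, 170, 38.3 and 55.1 CPM in the pooled classes, but the late values rested on few cells. The top 5 members held 51.6% of the Tagln UMIs at 17 dpa and 49.0% at 28 dpa, against 8.43% at 12 dpa. Before amputation the joint-lining class alone, with Hapln1, Prg4 and Inhba, was higher than members, at 259 CPM. Some members carried Myh11, the smooth muscle myosin that the rule does not test: 4 had over 2 Myh11 UMIs before amputation, 1 at 12 dpa, 5 at 17 dpa and 14 at 28 dpa. Without cells of over 2 Myh11 UMIs in any class, Tagln was 174, 434, 108 and 41.7 CPM in members and 62.0, 163, 19.1 and 26.4 CPM in the other classes, so that at 28 dpa it no longer reached 2-fold. With a rule sum of at least 5 it was 36.1 CPM in members at 28 dpa. That is below the 55.1 CPM of the other classes with their Myh11 cells and above the 26.4 CPM without them. Acta2 (smooth muscle actin) moved in the same way, from 275 to 150 CPM at 28 dpa without those cells. The 12 dpa level of Tagln was the highest of the 4 libraries with and without them.

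**Figure D2:**
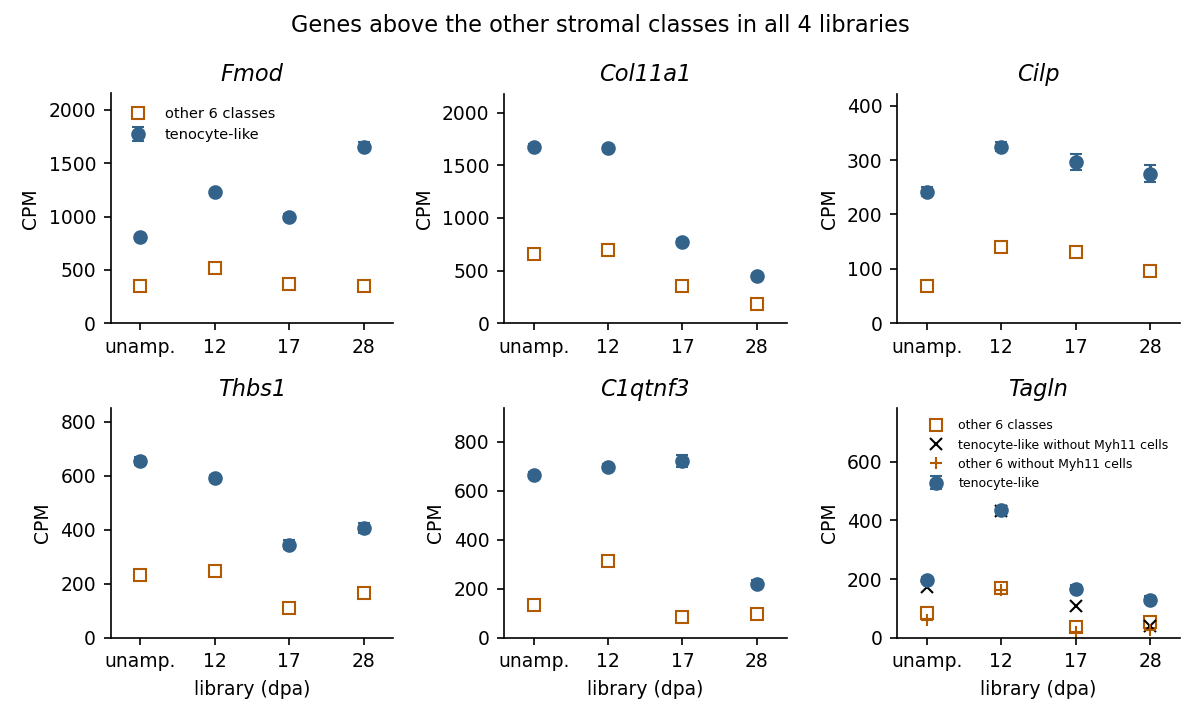
Levels (y axes, CPM) of the 6 genes at least 2-fold higher in tenocyte-like cells (filled circles, with exact 95% Poisson intervals) than in the other 6 stromal classes pooled (open squares) in the 4 libraries (x axes). Single classes are not drawn, and some stood above members for Fmod, Col11a1 and Tagln. Crosses and plus signs in the Tagln panel leave out cells with over 2 Myh11 UMIs, which takes the 28 dpa value of members from 130 to 41.7 CPM.

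Fmod is the proteoglycan gene among those 6, and Tnmd is the rule gene that Scleraxis is known to control, so their upstream sequences are shown. Fmod lies at chr1:134037254-134048277 and Tnmd at chrX:133850980-133865577, both on the plus strand of GRCm38. Scleraxis belongs to the basic helix-loop-helix factors, which bind E-boxes, and the motif CANNTG (which reads the same on both strands) is in capitals in the 250 bases before each RefSeq start.
Fmod, chr1:134037004-134037253: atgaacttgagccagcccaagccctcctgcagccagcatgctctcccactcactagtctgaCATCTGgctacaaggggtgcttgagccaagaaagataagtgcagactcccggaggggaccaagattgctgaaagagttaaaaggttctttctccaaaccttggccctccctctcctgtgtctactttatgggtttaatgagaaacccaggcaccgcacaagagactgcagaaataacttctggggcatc
Tnmd, chrX:133850758-133851007: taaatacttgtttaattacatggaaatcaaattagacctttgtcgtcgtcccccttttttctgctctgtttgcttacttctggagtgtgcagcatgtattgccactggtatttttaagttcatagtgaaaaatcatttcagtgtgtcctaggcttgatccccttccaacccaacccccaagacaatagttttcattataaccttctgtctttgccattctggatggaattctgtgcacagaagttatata
The Fmod window held 1 match and the Tnmd window none. Of all RefSeq windows of this length, 66.2% held at least 1 match, so a match sets no gene apart.

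Members differed among themselves by which rule genes were seen in the cell. All 3 were detected in 26.0% of unamputated members, 25.8% at 12 dpa, 18.5% at 17 dpa and 20.3% at 28 dpa. Thbs4 alone was detected in 21.3, 12.1, 29.3 and 29.5%. The split uses the rule genes, so these values are a description. Fmod was 1156, 1420, 1440 and 3184 CPM in cells with all 3 and 225, 791, 327 and 734 CPM in cells with Thbs4 alone. Col11a1 was 2618, 1939, 1123 and 1036 CPM against 461, 1073, 381 and 173 CPM. Both genes were higher in the triple-detected cells in every library. Comp (cartilage oligomeric matrix protein, which bridges collagen fibrils) was 396, 292, 507 and 1617 CPM against 159, 348, 232 and 400 CPM, with the order turned at 12 dpa. Kera, at 62.6, 28.2, 165 and 109 CPM against 19.6, 31.6, 32.2 and 35.6 CPM, was also lower in the triple-detected cells at 12 dpa. Tppp3, a marker of tendon sheath progenitors, went the other way, at 42.3, 27.6, 188 and 199 CPM against 212.3, 108, 279 and 480 CPM. Immune-marked cells of the same libraries also carried Tppp3, and whether any of its level in members is background was not tested. With cells thinned to 3000 UMIs, 39.2% of members and 72.9% of immune-marked cells had a Tppp3 UMI at 28 dpa, at median depths of 10978 and 7960 UMIs before thinning. Cells with Thbs4 alone were shallower in every library, at medians of 20369 UMIs against 29430 before amputation, 14998 against 20054 at 12 dpa and 12332 against 17017 at 17 dpa, with the smallest gap at 28 dpa, 10302 against 10776. The part of depth in these differences was not tested.

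**Figure D3:**
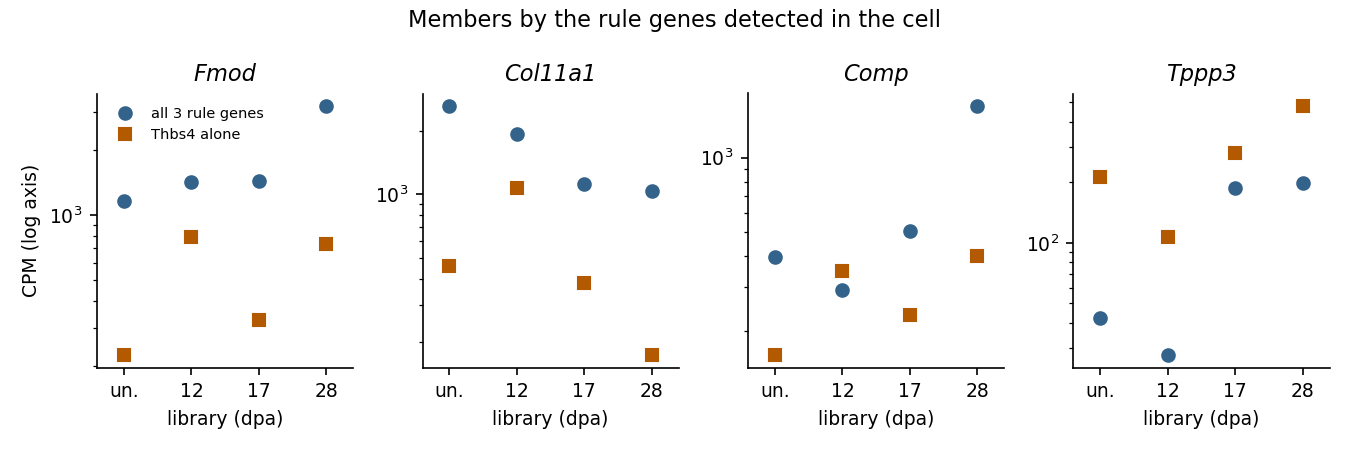
Levels (y axes, CPM, log scale) of Fmod, Col11a1, Comp and Tppp3 in members with UMIs of Scx, Tnmd and Thbs4 (circles) and in members with UMIs of Thbs4 alone (squares), by library (x axes). Fmod and Col11a1 are higher in the triple-detected cells in all 4 libraries and Tppp3 is lower.

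For changes after amputation, each dpa library was compared with the unamputated one. A gene is called higher or lower here when the ratio of CPM, after adding 1 CPM, reached 2-fold and the exact Poisson intervals of the levels did not overlap. The log2 ratio of the median gene was -0.18, -0.05 and -0.09 in the 12, 17 and 28 dpa libraries. The 12 dpa shift moves the split of its calls, from 35 higher and 285 lower to 79 higher and 163 lower when scaled by the median ratio. Many changes were shared by the other 6 classes. A change given for members alone may be shared too, and values of the other 6 classes are given for some genes and lists. The mix of those classes differed between libraries.

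At 12 dpa, 10 of 23 immediate early and 9 of 23 inflammatory genes were called lower. Of 10523 genes, 35 were called higher (0.333%) and 285 lower (2.71%). Of 32 tendon matrix genes measured outside the rule, none was called higher and 2 lower: Tnxb (tenascin X), at 56.1 before and 11.8 CPM at 12 dpa, and Wif1 (a Wnt inhibitor), at 31.3 and 7.55 CPM. Of 16 fibrillar and fibril-associated collagens, Col15a1 alone was called, lower, at 109 and 48.4 CPM. Of 22 matrix protease and inhibitor genes, 4 were called lower. Col1a1 stood at 28218 and 23099 CPM, and no gene of collagen processing and crosslinking was called.

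Of 23 immediate early and dissociation genes, 10 were called lower at 12 dpa and none higher, with a median log2 ratio of -0.86. Fos stood at 622 before amputation and 237 CPM at 12 dpa, Fosb at 83.6 and 24.4, Atf3 at 53.4 and 17.2, and Dusp1 at 184 and 76.4 CPM. The other classes had a median of -0.64 for this list. For inflammatory signals, 9 of 23 genes were called lower, with a median log2 ratio of -0.25 (-0.99 to -0.03 over the alternatives) against -0.18 for all genes. The other classes had a median of -0.45 for this list, a larger fall. Those called lower in members included the chemokines Cxcl1, at 134 and 39.1 CPM, and Ccl2, at 115 and 51.6 CPM. Cxcl1 in the other classes stood at 118 and 81.8 CPM. In the other classes Ccl2 stood at 46.7 and 103 CPM, the opposite order. These lists respond to cell handling, and the part of handling in the result was not tested.

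The named genes called higher at 12 dpa were few. Slpi, a secreted protease inhibitor, stood at 70.2 before amputation and 223 CPM at 12 dpa, while the other classes stood at 116 and 102 CPM. Tagln stood at 198 and 435 CPM, and Mif, a cytokine, at 255 and 523 CPM. In the other classes Tagln stood at 85.8 and 170 CPM and Mif at 249 and 412 CPM. Dbp, a circadian transcription factor, stood at 16.5 and 54.8 CPM and was called higher at 17 and 28 dpa too. Its log2 ratios at 12, 17 and 28 dpa were 1.67, 1.37 and 2.61 in members. In the other classes they were 1.82, 1.00 and 2.79, larger at 12 and 28 dpa. Cdk8 (281 and 648 CPM), Cmss1 (940 and 2034 CPM) and Gm15564 (34.9 and 79.0 CPM) were also called, and the other classes had larger ratios for all 3. Among the genes called lower were Ebf2, an early B-cell factor family member expressed in mesenchyme, at 213 and 47.1 CPM; Ccn3, a matricellular protein, at 165 and 38.1 CPM; and Igfbp5, which binds insulin-like growth factors, at 619 and 182 CPM. In the other classes Ebf2 stood at 200 and 77.1 CPM, Ccn3 at 214 and 139 CPM and Igfbp5 at 1316 and 625 CPM. Csmd1 stood at 144 and 22.7 CPM, with 75.4% of its 12 dpa UMIs in 5 members.

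At 17 dpa, Apod, Prelp and Id1 were among the genes called higher and Mest and Igfbp2 among those called lower. Of 10679 genes, 151 were called higher (1.41%) and 159 lower (1.49%). Of 34 tendon matrix genes, 5 were called higher: Tnxb, Prelp, Angptl7, Fgf18 and Col22a1. Prelp, a proteoglycan that anchors matrix to basement membrane, stood at 112 before and 315 CPM at 17 dpa, and Tnxb at 56.1 and 177 CPM. The 1 called lower was Col11a1, at 1679 and 773 CPM. Of 28 BMP, GDF and IGF genes, 6 were called higher and 2 lower (Mest and Igfbp2), with a list median of -0.02 (-0.09 to 0.08 over the alternatives). Those called higher included Id1 (a BMP target), at 18.9 and 67.7 CPM, Bmp2, at 9.13 and 20.2 CPM, and Igfbp6, at 620 and 1476 CPM. Id1 in the other classes stood at 52.7 and 70.7 CPM.

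Apod (apolipoprotein D, a lipid carrier) stood at 345 before and 2250 CPM at 17 dpa, against 299 and 532 CPM in the other classes. The top 5 members held 43.2% of its UMIs, and 190 of 287 members had at least 1. Ccl11 (eotaxin, a chemokine) stood at 31.5 and 122 CPM but came from 33 members, and it was lower than before amputation when Thbs4 was left out of the rule. Cdkn1a (the cell cycle inhibitor p21) stood at 37.9 and 126 CPM, and Nupr1, a stress-response gene, at 372 and 1129 CPM. Mmp13 (collagenase 3) stood at 55.7 and 149 CPM, with 50.7% of its 17 dpa UMIs in 5 members. Mest, an imprinted gene of growing mesenchyme, stood at 311 and 51.9 CPM, and Igfbp2 at 75.0 and 18.0 CPM. Ptgs2 (cyclooxygenase 2) stood at 108 and 42.3 CPM, and Ccn1, a matricellular target of YAP signalling, at 260 and 85.6 CPM. In the other classes Nupr1 stood at 284 and 739 CPM, Mest at 106 and 23.2 CPM and Ccn1 at 213 and 104 CPM. Igfbp2 stood there at 43.4 and 16.0 CPM, Ptgs2 at 65.2 and 45.6 CPM and Mmp13 at 849 and 900 CPM.

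More genes were called at 28 dpa than at 12 or 17 dpa, but with members limited to cells whose every other sum was under 3 the genes called lower numbered 677 at 12 dpa and 451 at 28 dpa. Dcn, Prelp and Comp were among the genes called higher and Col1a1, Lox and Mest among those called lower. Of 10716 genes, 343 were called higher (3.20%) and 546 lower (5.10%). Of 33 tendon matrix genes, 9 were called higher and 3 lower, with a list median of 0.43 (0.21 with every other sum under 3) against -0.09 for all genes. The other classes had a median of 0.31 for this list. Dcn (decorin) stood at 2828, 1813, 5484 and 6836 CPM in the unamputated, 12, 17 and 28 dpa libraries. Prelp stood at 112, 120, 315 and 750 CPM. Comp stood at 312, 311, 422 and 907 CPM. Each was highest at 28 dpa and not higher than 2-fold at 12 dpa. Cilp2, a relative of Cilp, stood at 14.9, 16.4, 20.4 and 78.0 CPM. Angptl7, a secreted protein of cornea and tendon, stood at 2.15, 4.33, 23.3 and 44.6 CPM, with 64.1% of its 28 dpa UMIs in 5 members. The log2 ratio at 28 dpa was 2.73 for Prelp in members and 2.61 in the other classes, 1.27 and 1.36 for Dcn, and 1.54 and 1.17 for Comp. For Fmod it was 1.04, just past the threshold, and 0.01 in the other classes pooled. In the Chad, Omd and Scube1 class alone Fmod stood at 744 CPM before amputation and 1386 CPM at 28 dpa. In the joint-lining class it stood at 450.5 and 707 CPM. Fmod was also higher at 28 dpa in the Pi16, Dpp4 and Pcolce2 class and lower in the remaining classes. The difference between members and other classes has no test here.

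Of 16 collagens, 7 were called lower at 28 dpa and 1 higher, with a list median of -0.67. Col1a1, the main fibril chain, stood at 28218, 23099, 18988 and 13330 CPM. Col5a1, which limits fibril diameter, stood at 2227, 1930, 1505 and 1021 CPM, and Col24a1 at 161, 116, 83.0 and 45.9 CPM. The 28 dpa library was the lowest of the 4 for all 3. Col3a1 stood at 19851 and 13476 CPM before amputation and at 28 dpa and was not called. Col12a1, a fibril-associated collagen of dense connective tissue, stood at 2490 and 920 CPM, and Tnc (tenascin C) at 1007 and 353 CPM. Lox, the crosslinking enzyme, stood at 516, 557, 394 and 163 CPM. The other classes had a collagen median of -0.82 at 28 dpa.

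**Figure D4:**
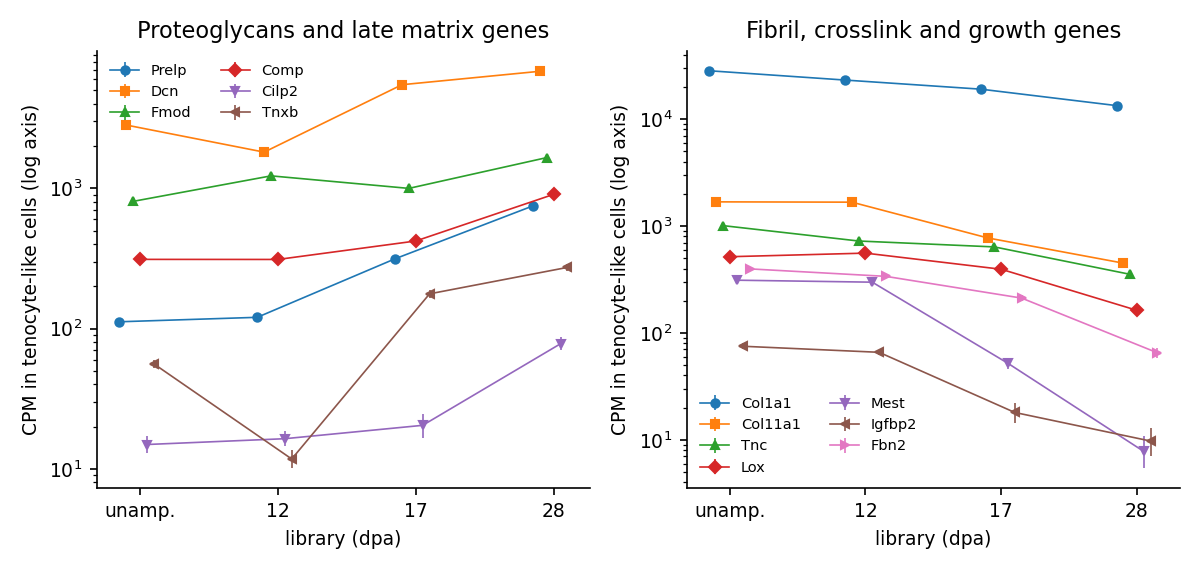
Levels in tenocyte-like cells (y axes, CPM, log scale) by library (x axes) of matrix genes called higher at 28 dpa (left) and of fibril, crosslink and growth genes called lower (right). Lines join the libraries and bars are exact 95% Poisson intervals; Prelp goes from 112 to 750 CPM and Mest from 311 to 7.80 CPM.

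Of 28 BMP, GDF and IGF genes, 6 were called higher at 28 dpa and 6 lower, with a list median of -0.25 (-0.30 to -0.11 over the alternatives). Id1 stood at 18.9 and 70.2 CPM and Igfbp6 at 620 and 2594 CPM, before amputation and at 28 dpa, both called higher. Mest stood at 311, 298, 51.9 and 7.80 CPM, with a log2 ratio at 28 dpa of -5.15 in members and -4.06 in the other classes. H19 (an imprinted non-coding RNA) stood at 62.9 and 13.9 CPM, Igfbp3 at 68.8 and 14.1 CPM and Igfbp2 at 75.0 and 9.75 CPM, before amputation and at 28 dpa. Mfap4 (a microfibril protein) stood at 432 and 61.5 CPM, and Fbn2 (fibrillin 2, the fibrillin of developing matrix) at 397 and 65.2 CPM. Eln (elastin) stood at 129 and 20.6 CPM, with 48.4% of its unamputated UMIs in 5 members. Of 22 protease genes, 8 were called lower and none higher, led by Adam12, a membrane metalloprotease, at 209 and 35.5 CPM. In the other classes Mfap4 stood at 210 and 48.4 CPM, Fbn2 at 183 and 10.6 CPM and Adam12 at 237 and 45.0 CPM. Igfbp2 stood there at 43.4 and 27.8 CPM and Eln at 211 and 105.5 CPM.

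Of 25 proliferation genes, 11 were called lower at 28 dpa and none higher, with a list median of -0.81 in members and -1.40 in the other classes. The members' median ran from -2.17 (cells thinned before the rule) to -0.28 (Thbs4 left out of the rule) over the alternatives. Mki67 stood at 60.8 before amputation, 41.9 at 12 dpa, 56.3 at 17 dpa and 18.4 CPM at 28 dpa. With cells thinned to 3000 UMIs, a Mki67 or Top2a UMI was seen in 10.7, 9.23, 4.23 and 4.38% of members and in 14.2, 10.6, 15.3 and 14.3% of immune-marked cells (median depths 7778 to 9154 UMIs before thinning), so by this share 17 dpa was as low as 28 dpa. Before thinning the members' shares were 23.5, 21.3, 10.1 and 8.72%. Pclaf, a replication factor, stood at 31.5 and 10.2 CPM, and Mcm6, a subunit of the replicative helicase, at 14.5 and 3.90 CPM, before amputation and at 28 dpa.

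Of 17 sheath, paratenon and progenitor genes, 8 were called higher at 28 dpa and 1 lower, with a list median of 0.88 (0.48 with every other sum under 3). Dcn is in this list and in the tendon matrix list. Ly6a (the stem cell antigen Sca-1) stood at 246, 172, 422 and 1002 CPM, Ly6c1 at 81.2, 61.2, 207 and 693 CPM, and S100a4 at 1514, 1281, 3434 and 6478 CPM. Cd34, a surface sialomucin of adventitial fibroblasts, stood at 145, 54.8, 266 and 363 CPM. All 4 were lowest at 12 dpa and highest at 28 dpa. The list median of the other classes was 0.92, and Ly6c1 stood there at 139 CPM before amputation and 873 CPM at 28 dpa. The membership rule keeps the sum of Pi16, Dpp4 and Pcolce2, markers of another class, below that of the rule genes in each member. Within that limit, Pi16 stood at 31.6, 19.5, 52.3 and 149 CPM, Dpp4 at 7.65, 4.09, 8.82 and 11.3 CPM, and Pcolce2 at 6.39, 6.50, 13.6 and 30.8 CPM. At 28 dpa Pi16 and Pcolce2 were over 2-fold above the unamputated level and Dpp4 was not. Their part in the list's change was not tested.

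Lbp (lipopolysaccharide-binding protein) was also called higher at 28 dpa, at 22.4 and 180 CPM. Its log2 ratio was 2.95 in members and 1.20 in the other classes. Stmn2, a tubulin-binding protein, stood at 2.45 and 55.5 CPM, in 42 of 390 members, and the other classes stood at 10.2 and 148 CPM. Of 23 inflammatory genes, 5 were called higher and 3 lower: Ccl2 stood at 115 and 275 CPM and Cxcl1 at 134 and 270 CPM (57.2% of its 28 dpa UMIs in 5 members), while Cxcl5 stood at 49.3 and 3.68 CPM.

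Markers of other cell types were present in members. The 11 joint-lining and cartilage markers measured summed to 3347, 2532, 4281 and 5709 CPM, against 2571, 2611, 3978 and 6194 CPM in the other classes pooled, so members were higher before amputation and at 17 dpa. Between 79.0 and 89.3% of members had over 20 UMIs of these markers, and Cnmd was at 0 in every library but 28 dpa, with Tspan15 and Ucma also at 0 at 17 dpa. Summed keratinocyte markers stood at 1028, 708, 585 and 1015 CPM, against 4458, 1225, 1321 and 2564 CPM in the other classes. Immune markers summed to 80.3, 58.0, 111 and 195 CPM, highest at 28 dpa, against 297, 127, 261 and 247 CPM. Endothelial markers summed to 77.1, 98.1, 87.4 and 123 CPM against 47.8, 76.3, 50.1 and 65.9 CPM, higher in members in every library. Mural markers summed to 111, 80.3, 179 and 228.2 CPM against 248, 120, 198 and 178 CPM, higher in members at 28 dpa. All 12 endothelial and all 10 mural markers were detected in every library. Schwann markers summed to 226.5, 204.5, 243 and 375 CPM against 369, 248, 385 and 466 CPM. Osteoblast markers summed to 359, 276, 413 and 677.5 CPM against 3476, 438, 5377 and 4888 CPM. At 28 dpa 7 of 10 immune markers compared were called higher and 2 lower, against 3.20 and 5.10% of all genes. Their median log2 ratio was 1.97 in members and 1.55 in the other classes. Skeletal muscle markers summed to between 4.38 and 10.4 CPM, and 3 to 6 of 10 were at 0. A doublet caller marked 15.5, 5.29, 6.97 and 11.5% of members. Apart from the Myh11 cells above, the part of these markers in the gene differences was not tested.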

How the data were processed

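The deposited files hold UMI counts per gene and barcode from 10x Chromium 3′ libraries of sorted live cells, made with Cell Ranger 7.1.0 against mm10, per the submitters' processing notes; annotation and cell-calling settings are not given in the sources used here. Barcodes were kept with at least 500 genes, 1000 UMIs and at most 10% mitochondrial UMIs. The counts of members were summed per library and expressed as CPM. A gene entered a comparison when the larger of its levels reached 5 CPM, and 1 CPM was added to both; genes of the rule, Xist, Tsix and Y-linked genes were left out. Intervals are exact Clopper-Pearson for shares and exact Poisson for levels. Doublets (Scrublet in scanpy 1.11.5) were removed in an alternative only. Calls were tried on simulated Poisson counts, the model that the intervals assume. The simulation held no bunching of UMIs in few cells and no spread between replicate libraries, so it cannot check the calls against either.

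Named genes were the 12 highest and 12 lowest called ratios per dpa library at 50 CPM or more, outside keratinocyte, immune, endothelial and mural signal. Up to 20 higher and 10 lower genes between classes, without that limit on signal, and examples from 15 gene lists were also named. Some genes that the rule names are not reported here. Aqp2, Aqp5, Kcns1 and Rasl11b were named after their values were seen. The members and lists were chosen with earlier results of these data known. Alternatives changed the cell filter, rule, scaling, pseudocount and minimum; leaving out cells with Myh11, with another sum of 3 or more, or with shared barcodes was chosen after seeing the data. Promoter windows are from RefSeq (GRCm38.p6) and gene positions from GENCODE M21, the same build as mm10.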

Additional observations from a re-analysis of the deposited data

Results flagged for a closer look

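Xist, the non-coding RNA expressed from the inactive X chromosome of female cells, lay outside the comparisons and appeared in the members of 1 library. It stood at 284.5 CPM in tenocyte-like cells at 12 dpa, from 4596 UMIs. It was at 0 UMIs in the unamputated, 17 and 28 dpa members, which allows levels of up to 0.223, 0.601 and 0.650 CPM at a limit of 3 counts per library. All 4 libraries are labelled as pools of both sexes.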

How the results depend on the processing

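The 12 dpa share was the highest of the 4 libraries under every alternative run. In the order unamputated, 12, 17 and 28 dpa it was 4.16, 11.7, 3.30 and 3.34% of all passing barcodes; 11.3, 23.4, 6.92 and 6.01% of cells within the Ptprc, Cdh5 and Rgs5 limits; 20.5, 36.7, 10.5 and 11.5% with Scx left out of the rule; 18.6, 37.6, 10.6 and 11.6% without Tnmd; 12.5, 31.9, 4.91 and 3.52% without Thbs4; and 8.12, 27.0, 5.66 and 4.89% with every other sum under 3. A rule sum of at least 5 gave 42.4, 11.0 and 11.1% at 12, 17 and 28 dpa, a sum of at least 2 gave 14.4% at 28 dpa, and thinning gave 50.2% at 12 dpa. Counts of called genes moved with the threshold. In the order 12, 17 and 28 dpa, a pseudocount of 5 CPM gave 16, 66 and 201 higher and 141, 72 and 288 lower, and a minimum of 20 CPM gave 18, 67 and 192 higher and 150, 70 and 299 lower. With no minimum, 75 and 232 were higher at 12 and 17 dpa and 251 lower at 17 dpa. At 12 dpa, median-ratio scaling gave 79 higher and 163 lower, doublet removal 63 higher, thinning 65 higher, the rule without Thbs4 65 higher (with 260 lower at 17 dpa), and every other sum under 3 gave 90 higher and 677 lower (with 340 lower at 17 dpa and 451 at 28 dpa, so that the order of the lower counts changed). Genes 2-fold above the other classes numbered 16 with median-ratio scaling, 6 with the mean over cells, 20 after thinning and 5 without Scx. Against the other classes, the ratio nearest 0 turned to -0.60 for Tagln with a sum of at least 5; it turned to 0.049 for Calm4 and 0.068 for Ly6d without Thbs4, to 0.034 for Ly6d without keratin-bearing cells, and to 0.16 for Calm4 and 0.14 for Ly6d with every other sum under 3. Ccl11 at 17 dpa turned to -0.81 without Thbs4. Of 45 list medians, 29 kept their sign throughout. The cause of these turns was not tested. No paired analysis was possible because each condition is 1 library. Depth per member fell with the order of libraries from 25202 to 10978 UMIs, and low genes are the least certain at 28 dpa.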
